A study of Sus scrofa with 180 samples.

Results

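The data described here are the 90 microarrays of the Semimembranosus muscle (SM), a large muscle of the ham, chosen from 180 arrays by the muscle named in the label of each array. The other 90 arrays hold the Longissimus lumborum muscle (LM) of the same pigs. The pigs were females and barrows of a second generation intercross of a Pietrain type line, FH016, with FH019, a synthetic line founded on Hampshire, Duroc and Large White, all untreated and of slaughter age, and each muscle was sampled soon after death by biopsy. Each pig gave 1 SM array, labelled with a single dye (Cy3) on the GenmascqChip, a custom pig muscle array. The labels give the pig number and the slide of each array, and not the sex, the family or the slaughter batch of a pig. The paper reports that the pigs came from different sire families, and its model nests the hybridization batch within sire. The questions were which transcripts gave the strongest signal in SM, which varied most between pigs, and which varied together.

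Skeletal muscle is built of fibres that hold the contractile proteins, and slow and fast fibres use different isoforms of myosin and troponin. Slow fibres burn fatty acids in mitochondria, whereas fast fibres rely more on glycogen. Between the fibres lie connective tissue, vessels, fat cells and immune cells, so a biopsy mixes the RNA of all of them. Fewer cells of a type and less RNA per cell cannot be told apart in such samples.

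A probe was kept when its spot was usable, that is well above background, uniform and not saturated, in more than 50% of the SM arrays, which left 11039 of 15198 probes (72.6%). Values are log2 signals relative to the median of their array, called log2 level below. The gene symbols come from the study's supplementary lists of genes that differed between the muscles, which name 3967 of the kept probes and 3481 genes. The named genes are therefore a selected subset of the array, and other probes are given by their own name. The fibre markers were read on 90 of 90 arrays each, with mean log2 levels of 8.87 for MYH1, 8.45 for MB, 4.99 for NEB, 4.45 for MYL1, 4.32 for MYF6, 3.59 for TTN and -0.21 for CKM. The share of spots well above background lay between 63.4% and 83.3% over the arrays, and the median processed signal between 105 and 252.

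Some results turn on the sequence or the behaviour of single probes. The first 30 bases of 6 probes, from their 5′ end as the scanner files give them, are shown with the first 15 bases in capitals, the window in which C was counted. The first pair are unnamed probes with 2 separate levels, the next pair are bright probes rich in C, and the last pair, of a sarcomeric actin and an embryonic myosin, hold few C.
BQ598889.1_523: ATATGTGACCCCAAAaattttaccattgaa
CB286695.1_1794: ACATCATTATAAGGGtagcagtcgtgggcg
OXT: GTCACCCCGCCCCCGaaattatgactctga
MFAP2: TTCTTCCCCAGCCCCcctcgcctgtcattc
ACTA1: CCCTGTGGAAGGAAAtggaaaacttgaagc
MYH3: GAGAGCGAAGAGTGAgcggtcctcctctgg

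Before the results, the pig numbers of the labels were compared between the muscles, because a pig has 1 array in each. Probe BQ598889.1_523 had 2 levels with no value between them. In SM, 40 arrays lay between -0.67 and 1.87 and 50 arrays between 5.34 and 6.84, and in LM 41 arrays were low and 49 high. The level was the same in both muscles for 83 of the 90 pig numbers (37 both low, 46 both high). Probe CB286695.1_1794 was also split, into 36 low (-3.59 to -0.93) and 54 high arrays (1.65 to 3.81) in SM and 41 low and 49 high in LM, but the level was the same for 43 of 90 pig numbers. The named gene with the largest SD, THBS2, which codes for thrombospondin 2, a secreted matrix protein, had 39 arrays at -0.13 or below and 51 at 1.63 or above in SM, and the same level in both muscles for 57 of 90. These 3 probes were chosen after their values were seen.

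**Figure D1:**
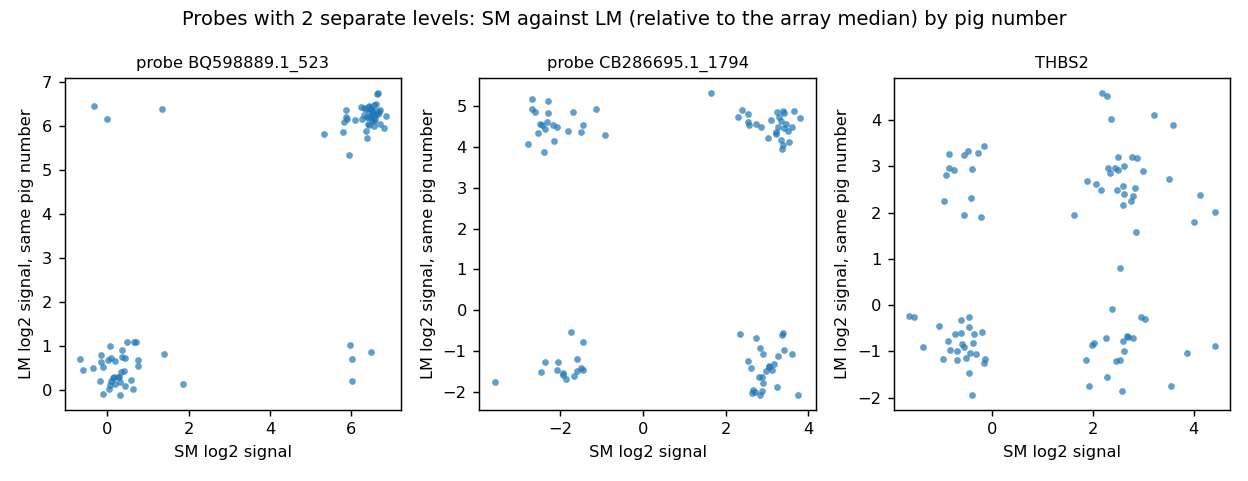
Log2 level in SM (horizontal axis) against log2 level in LM (vertical axis) of the same pig number, 1 point per pig, for 3 probes with 2 separate levels. Points in the upper left and lower right corners carry different levels in the muscles: 7 of 90 for BQ598889.1_523, 47 of 90 for CB286695.1_1794 and 33 of 90 for THBS2.

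Over the 22 probes with an SD above 1 in both muscles, the profile of an SM array was most like that of the LM array with the same pig number in 2 of 90 cases. In 44 cases an SM and an LM array were each other's best match, with correlations across the probes between 0.54 and 0.92 (median 0.80). Of these 44 pairs 1 shared a pig number. Unrelated arrays also form mutual best matches, and their expected number was not computed, so these pairs do not show which arrays share a pig. Arrays with the same number had a median correlation of 0.09, against -0.01 for other numbers. The LM array with the same number had a median rank of 33 among the 90. How closely these probes should agree between the muscles of a pig is not known, so these values do not test the labels. The level of BQ598889.1_523 also followed the place of the array on its slide. In SM it was high on 46 of 50 arrays in the first 2 columns of a slide and on 4 of 40 arrays in the last 2, and in LM 11 slides were high throughout, 9 were low throughout and 1 was mixed. The LM level was thus nearly a property of the slide. With slide means removed in each muscle the same-number correlation of this probe was -0.01. Removing the slide means takes away nearly all of the LM split, so no conclusion is drawn from this value. Since the paper nests hybridization batches within sire and the labels do not give the family, family could not be separated from slide. The match of this probe by pig number cannot be told apart from the placing of the arrays or from family, and no test is given for it. All arrays were kept under their labels, and the results within SM do not use the pig numbers except where stated.

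Of the 10 brightest named genes, 4 code for proteins of the contractile apparatus in muscle cells: ACTA1, TCAP, ACTA2 and MYH1. Of all kept probes the unnamed BM190045.1_951 (mean log2 level 10.31) and PMUS1-014B_81 (10.28) were brightest. Among the named genes ACTA1, the skeletal muscle actin, had the highest mean log2 level, 10.16 (lowest 9.52, median 10.19, highest 10.74). TCAP, the cap protein of titin, followed at 10.00 (lowest 9.53, median 10.02, highest 10.40) and ACTA2, the smooth muscle actin, at 9.75 (lowest 9.23, median 9.75, highest 10.35). Actin transcripts are near-identical in their coding sequence, so the assignment of the ACTA2 signal to that gene is uncertain. MYH1, a fast myosin heavy chain, had a mean of 8.87 (lowest 8.33, median 8.87, highest 9.39). MT-CO1, a subunit of cytochrome oxidase coded in the mitochondrial genome, had a mean of 8.59 (lowest 7.74, median 8.67, highest 9.07). The remaining genes among the 10 brightest were DUSP12 (9.13), OXT (9.12), MFAP2 (8.92), CD2BP2 (8.79) and RPL36 (8.70), so that the contractile genes were joined by a phosphatase, a hormone gene, a microfibril gene, a splicing factor and a ribosomal protein.

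Probe brightness can differ with the probe sequence as well as with the amount of mRNA, and these were not separated here. For the 426 genes with several probes, the highest and lowest probe of a gene differed by a median of 1.67 in mean log2 level, and for CD2BP2, with 5 probes, by 12.05. Probes with many C near their 5′ end were brighter. The 84 probes with 9 or more C in the first 15 bases had a median log2 level of 4.36, against -0.04 for the 4502 probes with 3 or 4 C. OXT, which codes for the hormone oxytocin, held 10 C in that window and MFAP2 held 9, whereas ACTA1 held 3. Ranks by brightness are thus ranks of probe signal.

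By function, the median of the mean log2 levels was 4.95 for 11 slow fibre genes, 3.81 for 4 fast fibre genes and 4.22 for the 10 genes of the mitochondrial genome. The slow genes ran from -2.30 (CSRP3) to 8.45 (MB) and the fast genes from -0.21 (CKM) to 8.87 (MYH1). These medians of probe signal therefore do not rank the fibre types. It was 3.99 for 30 nuclear genes of the respiratory chain and 3.92 for 12 genes of fatty acid oxidation. Extracellular matrix genes had a median of 2.19 (20 genes), and lower medians were seen for macrophage genes (-0.89, 11 genes), genes of adipocytes and lipid synthesis (-0.47, 10 genes) and genes of smooth muscle and pericytes (-1.38, 6 genes). The median over all named genes was -0.34. The haemoglobin gene HBA2, a marker of red cells, was read on each array and lay between 3.44 and 6.36.

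Between arrays, the spread of most probes was small. The median SD was 0.302 over the arrays and 0.288 once slide means were removed. From here on SD means the SD within slides. It lay between 0.179 and 0.507 for the probes from the 10th to the 90th percentile, and 48 probes (0.435%) had an SD above 1. The SD was smaller for brighter probes: with the probes ranked by brightness in 5 equal bins, its median was 0.350 in the dimmest bin, 0.276 in the middle bin and 0.238 in the brightest. The SD holds the spread between animals together with that of sampling, labelling and hybridization, since each muscle of a pig had 1 array.

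**Figure D2:**
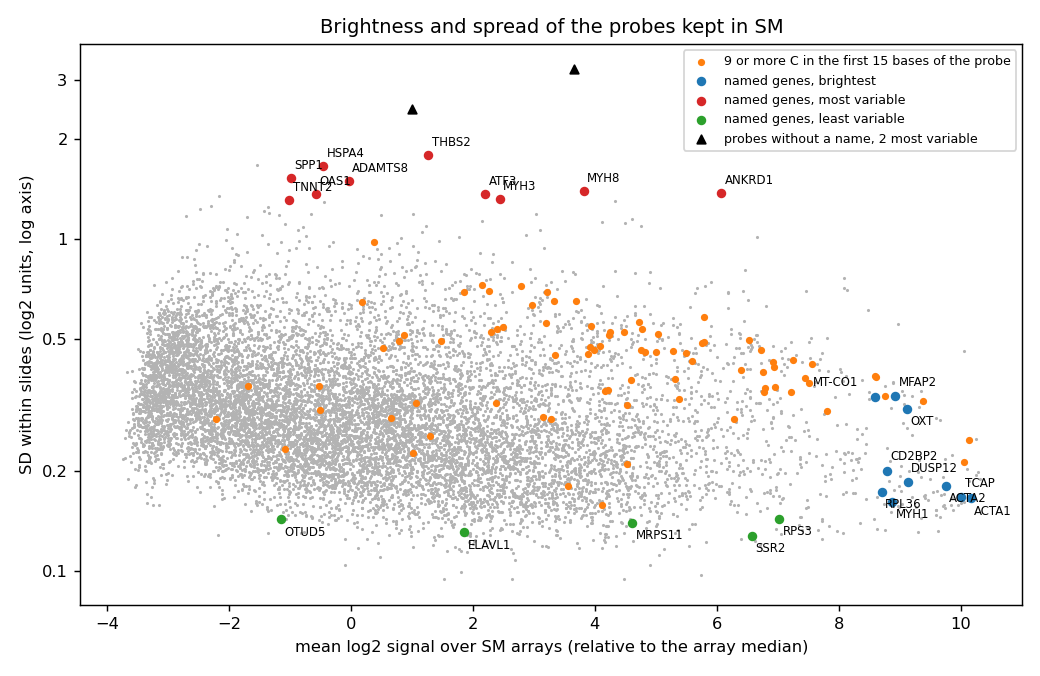
SD within slides of each kept probe (vertical axis, log2) against its mean log2 level over the SM arrays (horizontal axis), with the 10 brightest, 10 most variable and 5 least variable named genes marked. The median SD is 0.288, and the most variable named genes lie at 1.31 to 1.79.

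The most variable named genes included matrix, developmental and stress genes. THBS2 had an SD of 1.79 (lowest -1.63, median 2.04, highest 4.43), with the gap described above. HSPA4, a chaperone of the heat shock family, had an SD of 1.66 (lowest -3.29, median -0.63, highest 4.19). SPP1, the secreted matrix protein osteopontin, had an SD of 1.52 (lowest -3.67, median -1.13, highest 3.43), and ADAMTS8, a matrix protease, one of 1.49 (lowest -3.02, median -0.20, highest 4.26). The arrays thus spread over a far wider range for these genes than for a typical probe.

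MYH8, the perinatal myosin heavy chain, had an SD of 1.39 (lowest 0.69, median 3.86, highest 7.19), and MYH3, the embryonic one, of 1.32 (lowest -0.08, median 2.22, highest 6.44). TNNT2, the cardiac and embryonic troponin T, had an SD of 1.31 (lowest -3.85, median -1.13, highest 3.03). These genes of developing muscle were present in muscle of slaughter-age pigs, at levels that differed widely between arrays. ANKRD1, a titin-binding protein induced by load or injury, had an SD of 1.37 (lowest 2.06, median 6.16, highest 8.97). ATF3, a stress-induced transcription factor, also had an SD of 1.37 (lowest -1.09, median 2.53, highest 4.52). OAS1, an interferon-induced antiviral enzyme, had the same SD of 1.37 (lowest -2.45, median -0.86, highest 2.39). Over all probes, the largest SD belonged to the unnamed probes with 2 levels shown above, 3.23 for BQ598889.1_523 and 2.46 for CB286695.1_1794.

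**Figure D3:**
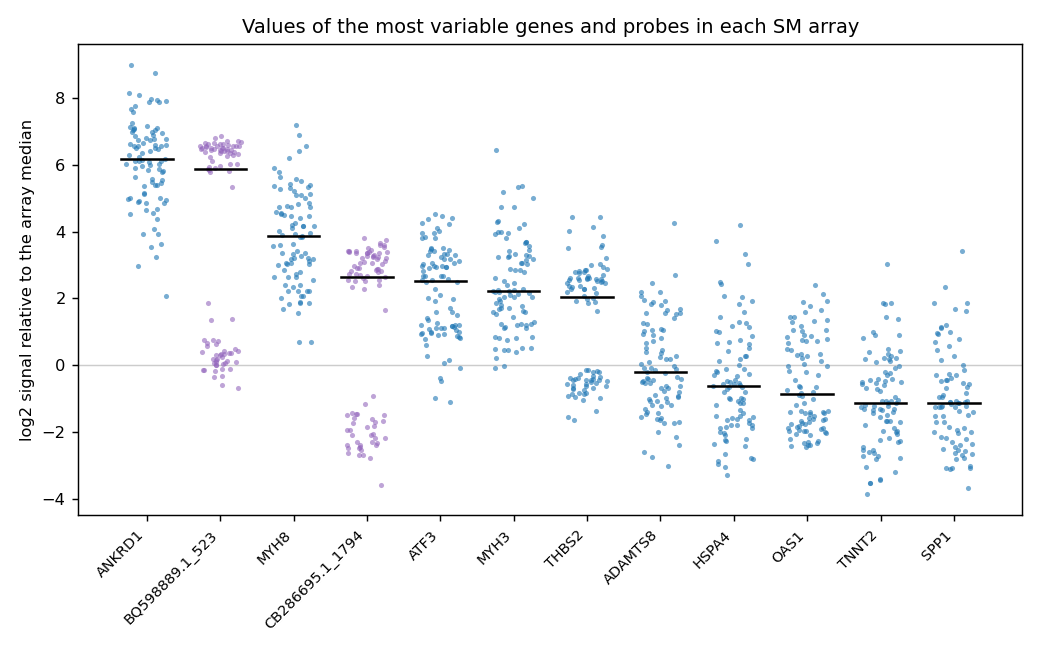
Log2 level of the 10 most variable named genes and of the unnamed probes BQ598889.1_523 and CB286695.1_1794 on each SM array (1 point per array, with the median as a bar). The points of THBS2 leave a gap between -0.13 and 1.63, and those of the unnamed probes leave wider gaps.

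The 5 least variable named genes were SSR2, ELAVL1, MRPS11, OTUD5 and RPS3. SSR2, a subunit of the complex that receives secreted proteins at the endoplasmic reticulum, had an SD of 0.127 (lowest 6.30, highest 7.00). ELAVL1, an RNA-binding protein (0.131), MRPS11 and RPS3, of the mitochondrial and cytosolic ribosome (0.140 and 0.143), and OTUD5, a deubiquitinase (0.143), followed. The fast fibre myosin MYH1 and the actin ACTA1 had SDs within slides of 0.162 and 0.165, at percentiles 5.35 and 6.08 of all probes, while their values over all 90 arrays, slide differences included, ran from 8.33 to 9.39 and from 9.52 to 10.74.

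The lists were set against the 90th percentile of the SD of all probes. Of 11 macrophage genes 8 had an SD above it, as had 9 of 12 immediate early and stress genes, 7 of 10 adipocyte and lipid genes, 5 of 6 interferon response genes, 4 of 5 developmental genes and 9 of 20 extracellular matrix genes. Of the 3481 named genes, 456 (13.1%) passed the same level. Of the 10 genes of the mitochondrial genome 4 passed it, as did 4 of 11 slow fibre genes, 3 of 30 nuclear genes of the respiratory chain, 1 of 12 of fatty acid oxidation and 1 of 9 of glycogen use and glycolysis. Of the 4 fast fibre genes, PVALB, which codes for the calcium buffer parvalbumin, had the largest SD, 0.936 (lowest -0.57, median 3.24, highest 4.92). Among lipid genes SCD, the desaturase that makes oleic acid, varied most (SD 1.18, lowest -2.26, median 0.50, highest 3.62), and CFD, the adipocyte serine protease adipsin, least (SD 0.233).

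Part of the spread followed the slide. The 90 arrays lay on 14 slides of 2 to 8 arrays each, scanned on 5 days, and 1511 probes differed between the 13 slides with 3 or more arrays (13.7% of the probes tested, limma, adjusted p of 0.05 or less). ACTA1 differed between slides (54.1% of its variance, adjusted p = 2.8e-07), as did TCAP (32.8%, adjusted p = 0.00166), MFAP2 (34.9%, adjusted p = 0.000344) and OXT (35.8%, adjusted p = 0.00039). For most probes the slide took little of the variance, with a median of 6.11%. Of the 30 nuclear genes of the respiratory chain 14 differed between slides, among them NDUFB7 (37.5%) and NDUFA11 (32.8%), subunits of complex I, whereas none of the 10 genes of the mitochondrial genome, of 12 of fatty acid oxidation or of 5 of MHC class II did. Among probes with 9 or more C in the first 15 bases, 64.3% differed between slides and the median SD was 0.428, against 11.4% and 0.284 for probes with 3 or 4 C. An index of the C-rich probes, the level of probes with 8 or more C in the window less that of probes with 2 or fewer on the same array, followed OXT (r = 0.91, rho = 0.87) and MFAP2 (r = 0.90, rho = 0.87; r = 0.88 for both without the 2 farthest arrays; permutation adjusted p = 4e-05, the smallest the permutations give after adjustment over 8 genes). These tests share probes, since both genes are themselves rich in C.

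The place of the array on its slide, a comparison added after the values were seen, called 1040 probes (9.42%). The shares given for position are of the variance left after the slide, unlike those given for slide. GALNT12, an enzyme of mucin type glycosylation, had the largest share, 79.8% of that variance (adjusted p = 7.8e-19). Its median log2 level was -2.46 in column 1 (lowest -3.88, highest -1.38) and -1.28, -1.23 and -1.26 in columns 2, 3 and 4, so that column 1 stood below the others with some overlap. DGKQ, a diacylglycerol kinase, had medians of 4.02 and 4.01 in columns 1 and 2 and of 2.07 and 1.93 in columns 3 and 4 (67.2%). MT-ND3, a subunit of complex I coded in the mitochondrial genome, split in the same way, with medians of 3.29 and 3.44 against 2.44 and 2.45 (55.7%, adjusted p = 5.2e-09). Of the 10 genes of the mitochondrial genome 7 differed between positions: MT-CO2, MT-CO3, MT-CYB, MT-ND2, MT-ND3, MT-ND5 and MT-ND6. MT-CO1, MT-ND4 and MT-ND4L did not pass (adjusted p = 0.511, 0.359 and 0.664). OAS1 (33.9%, adjusted p = 0.000258) and MYH8 (18.9%, adjusted p = 0.0269) also differed between positions, but HSPA4, SPP1, ADAMTS8, ATF3 and ANKRD1 did not pass. Which pigs were placed in which column was not given beyond their numbers, so position and pigs cannot be told apart.

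**Figure D4:**
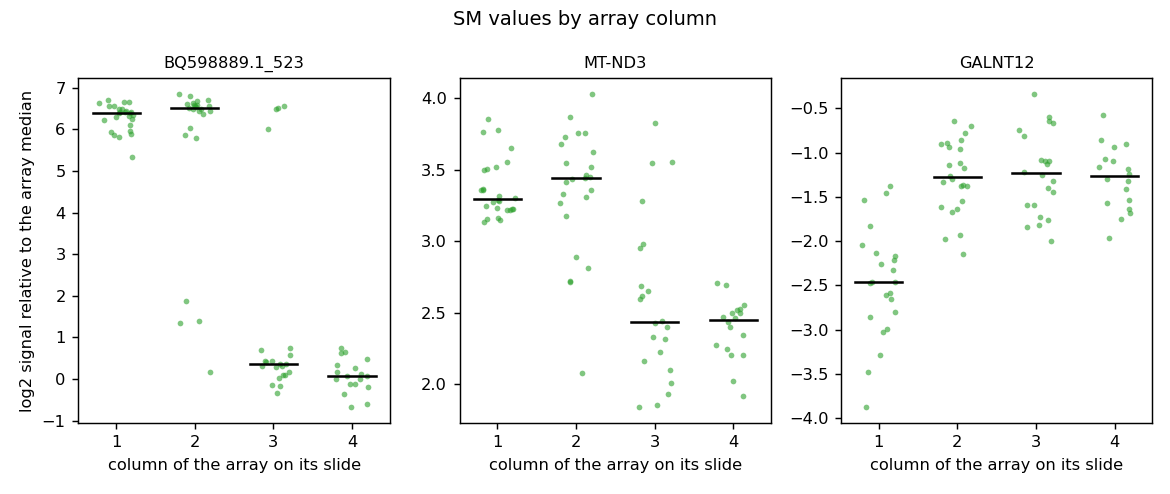
Log2 level on each SM array (points) by the column of the array on its slide (horizontal axis, columns 1 to 4), with medians as bars. BQ598889.1_523 and MT-ND3 are higher in columns 1 and 2 than in 3 and 4, and GALNT12 is lower in column 1 (median -2.46) than in the other columns.

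The pig numbers fall into 2 series, and 21 numbers begin with M, whose meaning the labels do not give. The series were not spread evenly over the columns of the slides. On slides 74 to 77 the 12 M arrays lay in columns 3 and 4 and 15 of the 16 others in columns 1 and 2, and on slides 65 to 67 the 9 M arrays lay in columns 1 and 3 and 12 of the 14 others in columns 2 and 4. Series and array column are therefore confounded, and their parts in the differences that follow cannot be told apart. With the slide in the model, 2055 probes differed between the 21 M-numbered pigs and the 69 others (18.6%), with 1096 higher (9.93%) and 959 lower (8.69%) in the M series; the deposited table gave 542 higher of 1267. SCD showed the largest difference among the genes of the lists: its mean log2 level was -0.55 in the M series and 0.81 in the others, a difference within slides of -1.60 ± 0.28 (SE, adjusted p = 3.3e-05). Genes of the interferon response were higher in the M series for 4 of 6 members. ISG15, a ubiquitin-like modifier, averaged 3.64 against 2.64 (difference within slides 1.23 ± 0.26, adjusted p = 0.000386) and MX1, an antiviral GTPase, 1.81 against 0.79 (1.23 ± 0.31, adjusted p = 0.00261). PSMB9, of the immunoproteasome, and IFIT1 differed by 0.68 and 0.60. OAS1 (0.31, adjusted p = 0.632) and MX2 (0.12, adjusted p = 0.346) did not pass.

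Of 13 heat shock genes 5 were higher in the M series and none lower: HSPB1 by 0.46, HSPB7 and HSPB8 by 0.40 each, HSP90AA1 by 0.35 and HSPB3 by 0.30. Of 20 extracellular matrix genes 4 were lower and none higher, namely FMOD (-0.71 ± 0.18), COL12A1 (-0.54), MGP (-0.49) and MMP2 (-0.32), and of 6 genes of smooth muscle and pericytes 3 were lower (CNN1, NOTCH3 and RGS5). None of the macrophage, developmental or mitochondrial genome genes were higher, and 1 of the last, MT-CO1, was lower (-0.27). FBXO32, a ubiquitin ligase of muscle wasting, was higher by 0.67 ± 0.16 (adjusted p = 0.00199), and IGF1, a growth factor, lower by 0.34 (adjusted p = 0.00346).

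The series was also compared within slides 65 to 67 (9 M and 14 others) and within slides 74 to 77 (12 M and 16 others), the sets that held both. On slides 65 to 67, 1781 of 11035 probes differed, and on slides 74 to 77, 972 of 11038. The sets shared 217 probes, which is 12.2% of the first and 22.3% of the second. Of these 133 had the same sign and 84 the opposite sign. Some overlap arises from the counts alone, and whether 217 exceeds it was not tested. SCD differed by -2.35 ± 0.38 in the first set (adjusted p = 0.000433) and by -1.01 ± 0.39 in the second (adjusted p = 0.0953). For MX1 the differences were 2.51 ± 0.32 and 0.23 ± 0.33, and for ISG15 1.93 ± 0.25 and 0.68 ± 0.29, both past the threshold on slides 65 to 67 and not on slides 74 to 77. The difference between the sets was not tested.

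Among the genes past the threshold in both sets with the same sign, named after their values were seen, were PDLIM3, a Z-disc protein (0.59 ± 0.08 over all slides), SQSTM1, an autophagy receptor (0.60 ± 0.09), GADL1, a decarboxylase (-0.81 ± 0.14), and CCL21, a chemokine (-0.74 ± 0.13). Since the M arrays lay in other columns than most of the others in each set, this is no separate check of a series difference. With the array position added to the model 1581 probes differed, and the difference was -1.63 for SCD, 1.58 for ISG15, 1.71 for MX1, 0.67 for PDLIM3 and -0.84 for CCL21.

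To find which genes varied together, each probe was regressed on 6 index genes chosen for a fibre type or cell type, with the slide in the model. A correlation below is that of the slide-adjusted log2 levels of a pair of genes over the arrays. Values of a pair come from the same RNA, labelling and hybridization. For each gene named by its correlation, the permutation p was 1e-05, the smallest that 100000 permutations give, and 30 such pairs were examined, the 5 strongest of each index gene.

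MYL2, the slow and cardiac regulatory light chain, marked the slow fibres (lowest 1.16, median 3.07, highest 4.01). In all, 626 probes co-varied with it (5.67%), of which 426 positively (3.86%) and 200 negatively (1.81%). ATP2A2, the calcium pump of slow fibres, followed most closely of the named genes (r = 0.85, rho = 0.81, adjusted p = 1.2e-18), and TNNI1, the slow troponin I, had r = 0.79 (rho = 0.71). SURF1, an assembly factor of cytochrome oxidase, had r = 0.79 (rho = 0.74), NKAIN1 r = 0.79 (rho = 0.69) and FANCA r = 0.74 (rho = 0.65). Each of these r stayed between 0.69 and 0.82 without the 2 arrays farthest in MYL2. Of 10 other slow fibre genes 7 rose with MYL2 (ANKRD2, ATP2A2, LDHB, MB, MYBPC1, MYL6B and TNNI1) and none fell, with a median r of 0.60 against -0.01 over all probes. Of 12 genes of fatty acid oxidation 7 rose, among them CPT1B, which admits fatty acids to mitochondria, and ACADVL, and of 30 nuclear genes of the respiratory chain 10 rose. These counts include ETFB and UQCRC2, whose probes disagree with each other (r = -0.04 and 0.17). None of the 10 genes of the mitochondrial genome, none of the 4 fast fibre genes and none of the 9 genes of glycogen use and glycolysis passed. MYL2 itself followed the index of C-rich probes weakly (r = -0.26, rho = -0.21, permutation adjusted p = 0.0275, r = -0.20 without the 2 farthest arrays). With that index in the model 363 probes co-varied with MYL2, and with the array position 279.

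COL1A2, a chain of collagen I, marked the connective tissue (lowest 1.32, median 3.49, highest 5.52). The number of co-varying probes was 2589 (23.5%), with 1190 positive (10.8%) and 1399 negative (12.7%), or 1342 positive and 697 negative when the arrays were centred on the 75th percentile, so that the larger side turned. After quantile normalization 1192 of 2109 were positive, and 866 of 1458 were so in the deposited table. SLC22A17, a receptor of lipocalin 2, had r = 0.93 (rho = 0.93), COL6A3, a chain of collagen VI, r = 0.92 (rho = 0.91), and COL16A1 r = 0.91 (rho = 0.90). C1QTNF2, a secreted relative of adiponectin, had r = 0.90 (rho = 0.87) and USP47, a ubiquitin protease, r = 0.87 (rho = 0.84). Without the 2 arrays farthest in COL1A2, these r lay between 0.85 and 0.92. Of 19 other matrix genes 17 rose with COL1A2, with a median r of 0.69 against -0.07 over all probes, and PCOLCE, whose 2 probes had r = 0.04 with each other, and TIMP1 did not pass. Other cell types moved with the matrix: 9 of 11 macrophage genes, such as CYBB and CTSS, 8 of 10 adipocyte and lipid genes, such as PLIN1 and SCD, and 3 of 5 MHC class II genes rose. Of the 10 genes of the mitochondrial genome 9 fell, with a median r of -0.32, as did 5 of 12 genes of fatty acid oxidation and 7 of 30 nuclear genes of the respiratory chain. The mitochondrial genome genes that fell include the 7 that differed between array positions. One of them is MT-ND6, whose 2 probes had r = -0.81 with each other. TTN, the giant spring protein of the sarcomere, and TRDN, of the calcium release complex, also fell. FST, the inhibitor of myostatin, and IGF1 rose, and FBXO32 fell.

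ADIPOQ, the adipocyte hormone adiponectin, marked the fat cells (lowest -2.20, median 0.45, highest 2.83). It co-varied with 1475 probes (13.4%), with 764 positive (6.92%) and 711 negative (6.44%), or 929 and 445 after centring on the 75th percentile and 625 positive of 1003 in the deposited table. PLIN1, the coat protein of fat droplets, had r = 0.95 (rho = 0.92, n = 89), ALDOC, an aldolase, r = 0.92 (rho = 0.90), CIDEC, which enlarges fat droplets, r = 0.90 (rho = 0.87), and CEBPA, a transcription factor of fat cells, r = 0.80 (rho = 0.74). SDR16C5, a retinol dehydrogenase, had r = 0.78 (rho = 0.75) over the 60 arrays on which it was usable. These r lay between 0.72 and 0.93 without the 2 farthest arrays. Of 9 other adipocyte and lipid genes 7 rose, while FABP5 and PCK1 did not pass. Of 20 matrix genes 15 rose, and ADIPOQ and COL1A2 themselves had r = 0.60. The heat shock genes HSP90AA1, HSPB1, HSPB3 and HSPB8 fell, 4 of 13, and so did 7 of 30 nuclear genes of the respiratory chain. No gene of fatty acid oxidation and no macrophage gene passed.

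HLA-DRA, a chain of the MHC class II molecule that presents antigen, marked the antigen presenting cells (lowest 1.76, median 2.77, highest 4.00). It co-varied with 1400 probes (12.7%), of which 619 positively (5.61%) and 781 negatively (7.08%). HLA-DQA1 and HLA-DMA each had r = 0.84 (rho = 0.82), HLA-DMB r = 0.80 (rho = 0.76), CORO1A, an actin-binding protein of leukocytes, r = 0.76 (rho = 0.74) and STAT2, a transcription factor of interferon signalling, r = 0.74 (rho = 0.70). They lay between 0.72 and 0.83 without the 2 farthest arrays, and HLA-DMA at 0.83 was the highest of them. The 4 other MHC class II genes of the list rose, as did 8 of 11 macrophage genes and 4 of 6 interferon response genes (IFIT1, ISG15, MX1 and PSMB9), with median r of 0.45 and 0.38. Of 20 matrix genes 2 rose, COL1A2 and LAMB1. CKM and MYH1, of the fast fibre list, fell, as did ALDOA and GAPDH, of glycolysis, TTN and TRDN, and 7 of 30 nuclear genes of the respiratory chain.

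FOS, an immediate early transcription factor, marked acute activation (lowest 0.62, median 4.55, highest 7.00). Its SD of 1.11 was above that of the other index genes except MYH3, yet it co-varied with the fewest probes, 75 (0.679%), with 52 positive (0.471%) and 23 negative (0.208%). This order rests on the processed signal, since with normexp background correction 6334 probes co-varied with FOS, and 120 without the 3 arrays that this correction changed most. BTG2, a growth arrest gene, had r = 0.74 (rho = 0.76), ADAMTS1, a protease, r = 0.69 (rho = 0.63), KLF2, a factor of endothelium and T cells, r = 0.68 (rho = 0.66), SLC2A3, a glucose transporter, r = 0.62 (rho = 0.60), and CTGF, a matricellular protein, r = 0.60 (rho = 0.48). Without the 2 farthest arrays the last was 0.54 and the others lay between 0.64 and 0.73. Of 11 other immediate early and stress genes 4 rose with FOS (ATF3, BTG2, CTGF and KLF2). None of the 13 heat shock genes and none of the genes of the fibre lists passed.

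MYH3 marked developing fibres and co-varied with 2035 probes (18.4%), of which 981 positively (8.89%) and 1054 negatively (9.55%). TNNT2 had r = 0.87 (rho = 0.83, n = 88) and MYH8 r = 0.81 (rho = 0.74), which are 2 of the 4 other developmental genes of the list. PADI2, a peptidylarginine deiminase, had r = 0.75 (rho = 0.64), GPX4, which removes lipid peroxides, r = 0.72 (rho = 0.75), and CASQ2, the calcium store protein of slow and cardiac muscle, r = 0.71 (rho = 0.57). They lay between 0.67 and 0.85 without the 2 farthest arrays. The others, TNNI3 and NCAM1, did not pass, and the median r between pairs of the 5 developmental genes was 0.15. Of the 10 genes of the mitochondrial genome 6 rose with MYH3 (MT-CO2, MT-CO3, MT-CYB, MT-ND3, MT-ND5 and MT-ND6), each of them among the 7 that differed between array positions. Of 30 nuclear genes of the respiratory chain 9 rose, of 11 macrophage genes 8 and of 20 matrix genes 9. Of 11 slow fibre genes 2 fell with MYH3, ATP2A2 and TNNI1, and 1 rose, CASQ2, and MYL2 and MYH3 had r = -0.22. MSTN, the growth inhibitor myostatin, also fell. MYH3 followed the index of C-rich probes (r = 0.32, rho = 0.34, permutation adjusted p = 0.00643, r = 0.29 without the 2 farthest arrays), and with that index in the model 1328 probes co-varied with it.

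**Figure D5:**
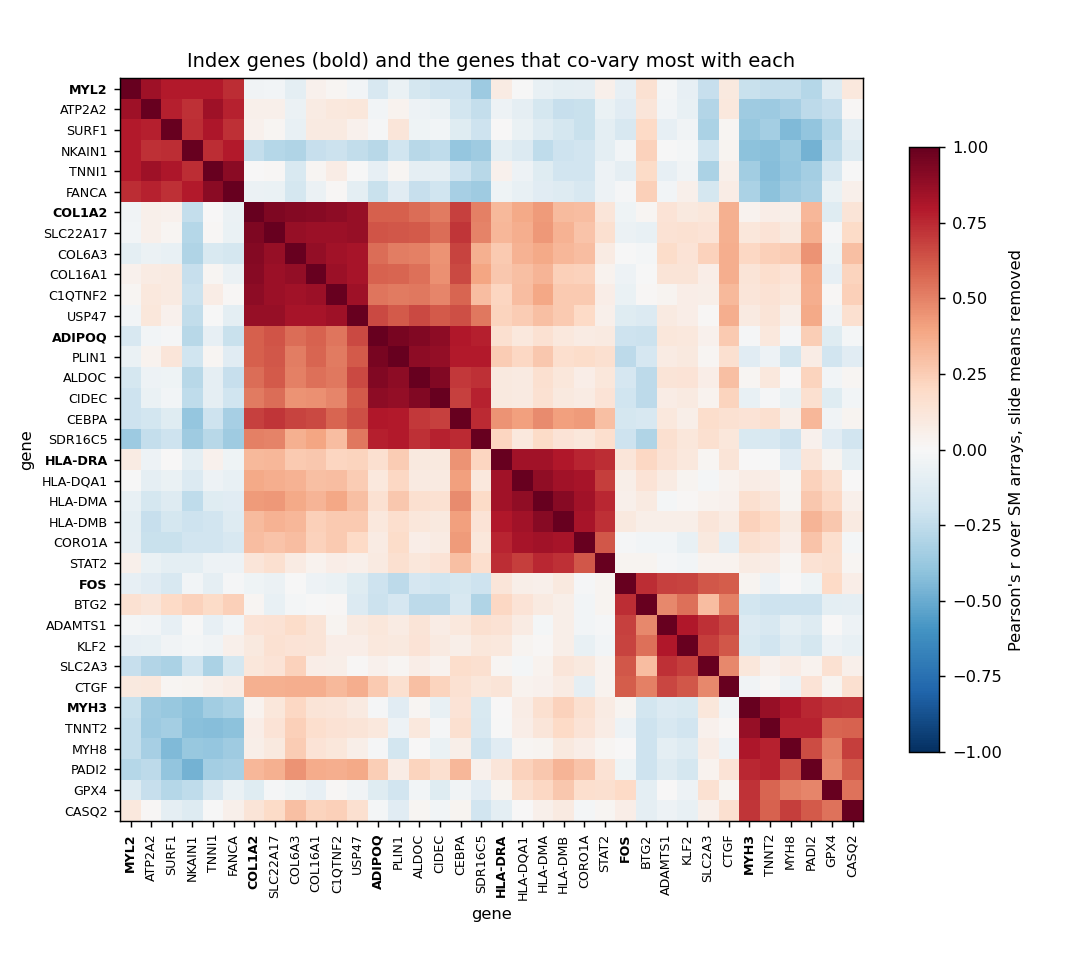
Slide-adjusted Pearson correlation over the SM arrays between the 6 index genes and the 5 named genes that follow each of them most closely (colour scale from -1 to 1). Blocks of high values stand along the diagonal, the COL1A2 and ADIPOQ blocks are joined (r = 0.60 between the index genes), and MYL2 and MYH3 have r = -0.22.

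For a gene with several probes, the probes can be set against each other. Over the 426 such genes the median correlation between probes of a gene was 0.84 (quartiles 0.56 and 0.94). COL1A2 (r = 0.94) and ACTA1 (r = 0.91) had probes that moved together. The 2 probes of MT-ND6 had r = -0.81, and low values were also seen among the listed genes for ETFB (-0.04), PCOLCE (0.04), PHKB (0.09), MT-ND4 (0.15), UQCRC2 (0.17) and, as the median of 5 probes, CD2BP2 (0.16). Values of these genes depend on the probe, and the brightest probe is the one given above.

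Finally, the spread in SM was set against that in LM for the same pig number, with slide means removed in each muscle, which compares the order of the pigs and no levels. The median correlation over 10980 probes was 0.01 (quartiles -0.06 and 0.09), and by the correlation test with Benjamini-Hochberg adjustment 0 probes passed (0%), with 537 (4.89%) at an unadjusted p of 0.05 or less. Of 215 features given by name 0 passed, and 23 had an unadjusted permutation p of 0.05 or less. These features include some unnamed probes, and they include genes and probes chosen because their same-number correlation was among the highest. The 23 therefore cannot be set against the share over all probes, and no excess is drawn from it. The highest named genes were GFAP (r = 0.38), PPOX (r = 0.35) and POLR2F (r = 0.34), and the highest unnamed probe, BQ604970.1_1540, had r = 0.41. With slide means kept, 160 probes passed (1.46%), and 10 of those given by name did, of which 8 were of the mitochondrial genome, with MT-ND6 at r = 0.68. With slide means kept the placing of the arrays enters both muscles. For BQ598889.1_523, 1 of the 10, removing the slide means also removes nearly all of the LM split, so its loss of correlation decides nothing. The profiles above rarely matched by pig number, but they do not test the numbers. These correlations hold only as far as the numbers do.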

How the data were processed

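Labelled RNA of each muscle was hybridized by the authors to 1 array per sample and read with Agilent Feature Extraction, whose deposited files hold signal intensity on a linear scale, background-subtracted and detrended within the array and not normalized between arrays. The deposited table of 6903 probes holds natural log values, which the authors made from the processed signal less 1 constant per array (checked here, 100% of values within 0.01). It keeps 96.9% of the spots that are not well above background, and its column medians in SM lie between -0.48 and -0.38. It was used only as an alternative.

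Here control spots were left out, log2 of the processed signal was taken, and a spot was treated as missing where the scanner marked it as saturated, non-uniform or too close to the background. Probes usable on more than 50% of the 90 SM arrays were kept and each array was centred on its median. Saturation touched 23 probes, and the 2 saturated on over 50% of the arrays were not kept. Array signals carry no read depth, and precision is set by how many arrays gave a usable spot. Linear models with the slide as a factor were fitted to all kept probes in limma (version 3.58.1, lmFit and eBayes, R version 4.3.3), and p values were adjusted over all probes (Benjamini-Hochberg, 0.05). Other values were computed with Python 3.11.15, numpy 2.4.6, pandas 2.3.3, scipy 1.17.1 and matplotlib 3.10.9. Permutation tests were two-sided with 100000 permutations. The slide models were tested on simulated data.

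A gene with several probes is shown by its brightest. Named are the 10 brightest genes, the 10 most and 5 least variable of those usable on at least 81 arrays, the 5 genes closest to each of the 6 index genes, the 10 with the highest same-number correlation, the 200 genes of 21 lists, and up to 2 unnamed probes per ranking by SD or by same-number correlation. Of the lists, those of the giant sarcomere, myogenic, endothelial, ribosomal and muscle mass genes held 4, 3, 5, 19 and 4 members, of which 0, 2, 2, 2 and 3 had an SD above the 90th percentile. The members and lists were chosen with earlier results of these data known. The study's model terms for sex, slaughter batch, carcass weight and hybridization batch within sire were left out, since the labels do not give them. Whether the slide term used here covers sire family is not known.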

Additional observations from a re-analysis of the deposited data

How the results depend on the processing

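Over 103 comparisons of a result with an alternative setting (78 planned, 25 chosen after seeing the data), 76 values stayed within 1.5 times the reported one or moved by less than 1 SD, and 27 moved further. Counts carry no sign, and the larger side of the splits by sign for COL1A2, ADIPOQ, HLA-DRA, MYH3 and the series, most of which were near even, turned under at least 1 setting. For FOS, 50 of 87 probes were positive in the deposited table. Under normexp the larger side turned for MYL2 (3425 positive of 6938), FOS (3060 of 6334) and MYH3 (677 of 1057). With normexp background correction, 391 probes differed between slides and 1276 between the pig number series, and the probes that co-varied were 6938 for MYL2, 1377 for COL1A2, 610 for ADIPOQ, 6629 for HLA-DRA, 6334 for FOS and 1057 for MYH3. On 3 arrays the normexp values correlated with the processed signals below 0.95 (lowest 0.876, median over arrays 0.993). Without these 3, 612 of 1893 probes that followed HLA-DRA did so positively, and the counts were 2932 between slides, 1510 for COL1A2, 731 for ADIPOQ and 120 for FOS. With the deposited table, which holds fewer probes, they were 1003 between slides, 1267 between the series, 217 for MYL2 and 1458 for COL1A2. MYL2 gave 1064 probes after quantile normalization, 335 with values over 3 SD removed, 363 with the index of C-rich probes and 279 with the array position in the model. With that index, 2658 probes differed between slides and 1328 followed MYH3. Scan day in place of slide called 2760. Without a slide term 2438 probes followed ADIPOQ and 2358 HLA-DRA. With slide means kept, 10 of the features given by name passed the same-number test. On slides 74 to 77 alone 972 probes differed between the series. The cause of these shifts was not tested. No paired analysis was possible because the levels of the muscles, which share pig numbers, were not compared; the numbers served only to set values of a pig side by side. Values of dim probes are limited by the background, since 73.3% of spots were well above it.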

Other observations

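Over the 8388 probes usable on each SM array, the first 3 principal components of the values took 14.1%, 10.2% and 8.46% of the variance. The positive side of the first was led by PPWD1, MTRF1L and RBM26 (r with the component 0.89, 0.87 and 0.87) and its negative side by FLOT2 and BCL7C (r = -0.82 each). It had r = -0.82 with the index of C-rich probes (rho = -0.81, permutation adjusted p = 9e-05 over 9 tests, r = -0.80 without the 2 farthest arrays) and r = 0.45 with the log2 median signal of the array (rho = 0.38, r = 0.39 without the 2 farthest arrays, permutation adjusted p = 9e-05).

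The second component was led by DGKQ, MT-ND3 and OAS1 (r = 0.80, 0.78 and 0.77), genes that differed between array positions, against BBX and FOLR2, the latter a folate receptor of macrophages (r = -0.86 and -0.85). The third was led by ANXA2, a membrane-binding protein of many non-fibre cells (r = 0.92), ECM1, RPL30 and LAMB1, a laminin chain (r = 0.85, 0.84 and 0.84), against ZCCHC10 and ATP13A1 (r = -0.70 and -0.69). The component scores come from the same values as the genes, so these correlations describe the components and test nothing.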
